A study of Mus musculus with 12 samples.

Results

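Clustered protocadherins are cell-surface adhesion proteins encoded by 3 neighbouring gene clusters, alpha, beta and gamma, on mouse chromosome 18. They were taken from the deposited table as the protein-coding rows whose symbol is Pcdha, Pcdhac, Pcdhb, Pcdhga, Pcdhgb or Pcdhgc followed by a number. This gave 57 of 28842 genes: 14 alpha, 22 beta and 21 gamma members. In GRCm38 coordinates the alpha members span 36930184 to 37187661, the beta members 37264938 to 37524479 and the gamma members 37661793 to 37841873, all on the plus strand. Prefrontal cortex of male C57BL/6J mice labelled wild type was profiled by RNA sequencing, with 6 libraries from a cocaine group and 6 from a saline group. Over postnatal days 28 to 42 the cocaine group was injected with 15 mg/kg of the drug, and the saline group with saline. Both groups then had a place preference pre-test on day 75, 1 mg/kg cocaine ahead of training on days 76 and 77, and the test on day 78, with tissue taken 30 to 60 min later. The groups therefore share the adult cocaine doses and differ in adolescent exposure. The labels do not tie libraries to individual mice, so every p-value here reflects variation among libraries only, which may be technical.

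Each neuron is known to switch on a small set of clustered protocadherin promoters, largely at random, through DNA looping by Ctcf and cohesin, and the resulting proteins bind only matching proteins on other cell surfaces. This gives neurites of a cell an identity that lets them avoid each other, and gamma members also support the survival of some neurons. In the alpha and gamma clusters each variable exon carries its own promoter and is spliced to 3 constant exons that all members of that cluster share, whereas a beta gene is a single exon. The C-type members, Pcdhac1, Pcdhac2, Pcdhgc3, Pcdhgc4 and Pcdhgc5, differ from the others in being switched on in a more uniform way in many neurons.

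The gene models largely carried the same layout. In GENCODE M21 every alpha member had 4 exon blocks and every beta member 1. Gamma members had 4, except Pcdhgc5 with 3 and Pcdhgb1 and Pcdhgb4 with 5. The median share of exon bases held in common with other members was 53.4% in the alpha cluster, 44.6% in the gamma cluster and 0% in the beta cluster. Values are normalised reads, meaning reads per gene divided by 1 size factor per library, and were not divided by gene length. Members at nearly 0 share their constant exons with the highest members of their cluster, so reads in those exons were not credited to every member. Levels between genes are therefore given per kilobase of the deposited length and, in addition, per kilobase of a member's own exon bases. Own bases are those in no other annotated gene on the same strand, and minus-strand genes may overlap them.

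Pcdhgc5, Pcdhac2, Pcdhgc3 and a few beta genes had the highest levels. Pcdhgc5 averaged 1257 normalised reads over the 12 libraries, or 165 per kilobase (273 per kilobase of its own exon bases), and alone made up 38.8% of the gamma sum. Pcdhac2 followed with 77.7 per kilobase (151 on its own bases) and made up 46.9% of the alpha sum. Pcdhb9, Pcdhb17 and Pcdhb20 had 75.6, 68.4 and 65.3 normalised reads per kilobase. Pcdhgc3 had 49.2 and Pcdhgc4 31.7, and Pcdhgb6, the highest gamma member that is not C-type, had 31.1 per kilobase. On own exon bases the order differed: Pcdhgc3 had 80.1, Pcdhgb6 56.8, Pcdhga4 51.4 and Pcdhgc4 51.0 normalised reads per kilobase. Pcdhac1, in contrast to the other C-type members, had 6.40 per kilobase of deposited length, below Pcdha12 at 22.3 and Pcdha9 at 15.5. The median member had 6.89 normalised reads per kilobase in the alpha cluster, 19.6 in the beta cluster and 17.1 in the gamma cluster. On own exon bases the medians were 15.5 for alpha, 19.6 for beta and 32.2 for gamma, so the order of the beta and gamma clusters depended on the length used.

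**Figure D1:**
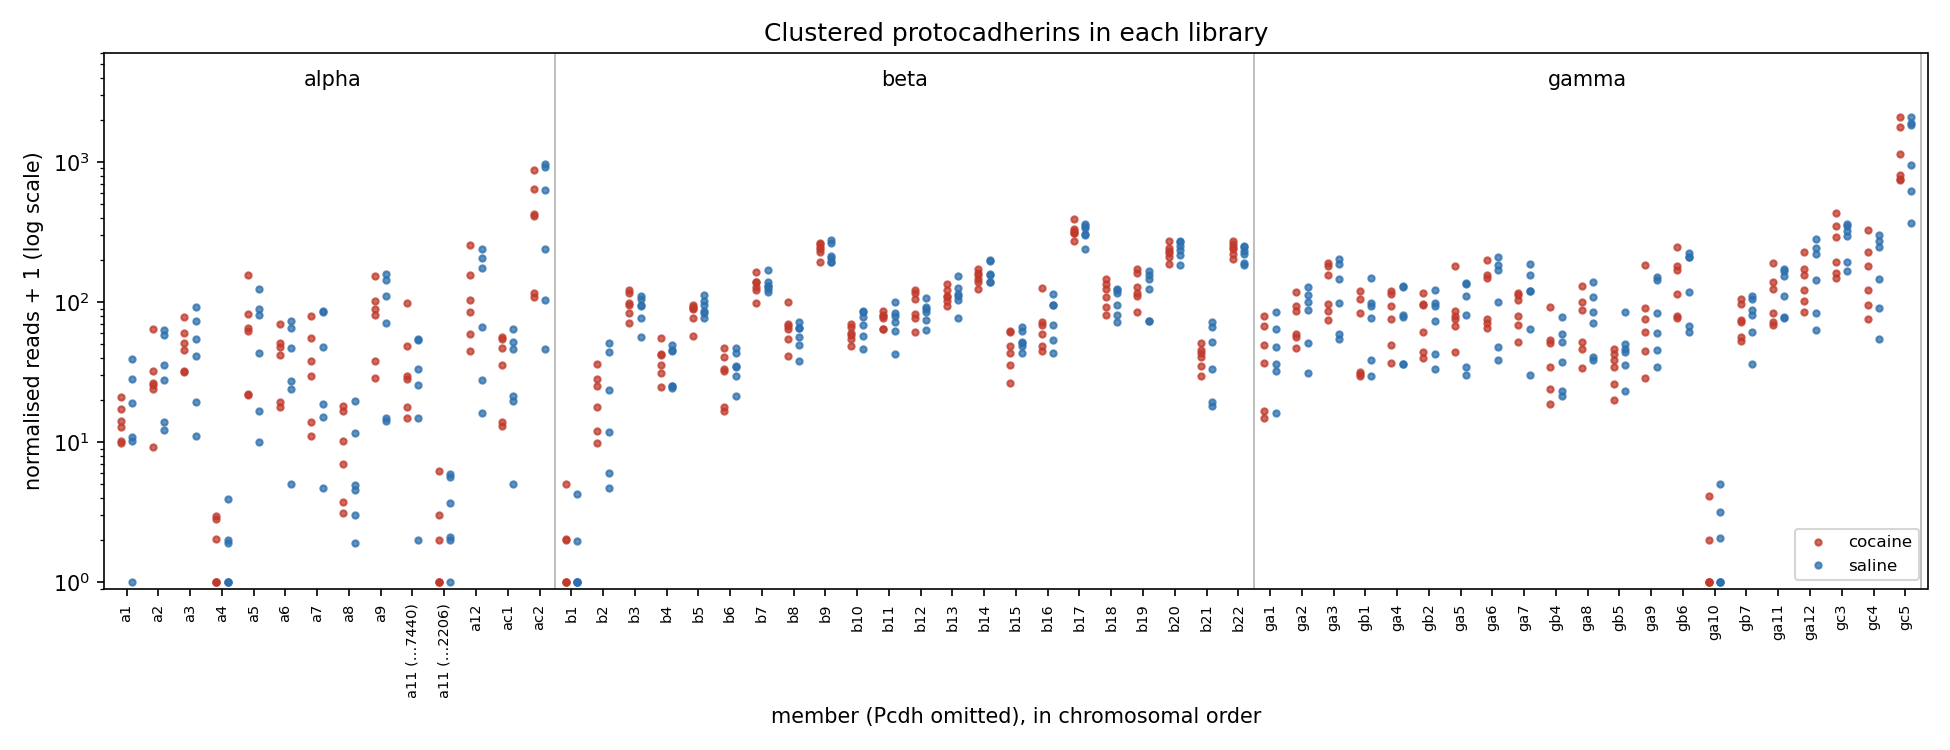
Normalised reads plus 1 (log scale) of the 57 members in chromosomal order, with 1 point per library, cocaine left of saline. Points of alpha and gamma members run over a wider vertical range than those of most beta members, and Pcdha4, Pcdha11 (ENSMUSG00000102206), Pcdhb1 and Pcdhga10 lie near the bottom of the axis.

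Of the 57 members, 52 had a mean of at least 10 normalised reads and were tested: 11 alpha, 21 beta and 20 gamma. The 5 others were Pcdha4 (mean 0.811 normalised reads), Pcdha8 (7.72), the Pcdha11 gene with the ID ENSMUSG00000102206 (1.88), Pcdhb1 (0.865) and Pcdhga10 (0.955). Except in Pcdha8, no library of these exceeded 5.25 normalised reads, and 3 reads correspond to 2.70 to 3.29 normalised reads per library. Annotated overlaps differ among them. Pcdha4 shares 2410 exon bases with other plus-strand genes, all 2613 bases that Pcdhga10 does not share with other plus-strand genes are overlapped by minus-strand genes such as Gm26672, and ENSMUSG00000102206 shares 3338 bases with minus-strand genes including Gm10545. Whether reads were counted by strand is not given, so reads of these overlapping genes cannot be told apart. Pcdhb1 and Pcdha8 have no such overlap. A second gene named Pcdha11, ENSMUSG00000007440, was tested and is meant by Pcdha11 from here on.

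The design compares adolescent cocaine with adolescent saline after the same adult cocaine and place preference test, and no member passed in limma. A lasting change cannot be told apart here from a changed response to the adult cocaine or the test. Over 16067 genes, limma with Benjamini-Hochberg adjustment called 0 genes at an adjusted p under 0.05, which is 0.00% of those tested, and 0 of 52 members. Without adjustment, 240 genes (1.49%) had a p under 0.05, 113 of them higher (0.703%) and 127 lower (0.790%) in cocaine, and none was a member. Groups did not overlap in 14 genes (0.0871%) and in 0 members. The lowest unadjusted p of a member was 0.190, for Pcdhgb5, and its adjusted p was 1.00. Log2 differences, cocaine minus saline on the log2(value + 1) scale, were above 0 for 28 members and below 0 for 24, with a median of 0.04 against 0.00 over all genes tested. edgeR on the recovered reads called 0 of 16057 genes and had 253 at an unadjusted p under 0.05, again with 0 members. DESeq2 called 3 genes (Nr4a1, Arc and Dusp1, named here because they were called), none of them a member.

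The 3 clusters differed in how precisely a difference could be measured. For alpha members the median log2 difference was 0.28 with a median standard error of 0.63, and differences ran from -0.16 (Pcdha2) to 0.64 (Pcdha11). Beta members had a median of 0.08 with a median standard error of 0.18, over a range of -0.27 (Pcdhb15) to 0.28 (Pcdhb2). Gamma members had a median of -0.06 with a median standard error of 0.38, from -0.40 (Pcdhgb5) to 0.15 (Pcdhga3). By sign, 10 of 11 alpha, 12 of 21 beta and 6 of 20 gamma members were above 0. These signs depended on which library was left out. Without saline 5, 0 of 11 alpha, 8 of 21 beta and 0 of 20 gamma members were above 0, with medians of -0.16, -0.04 and -0.28. Of all 52 members, 15 were above 0 without saline 6, and 38 without cocaine 1 or without saline 3. In edgeR and likewise in DESeq2, 19 of the same 52 members were above 0. The difference between clusters in response was not tested.

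**Figure D2:**
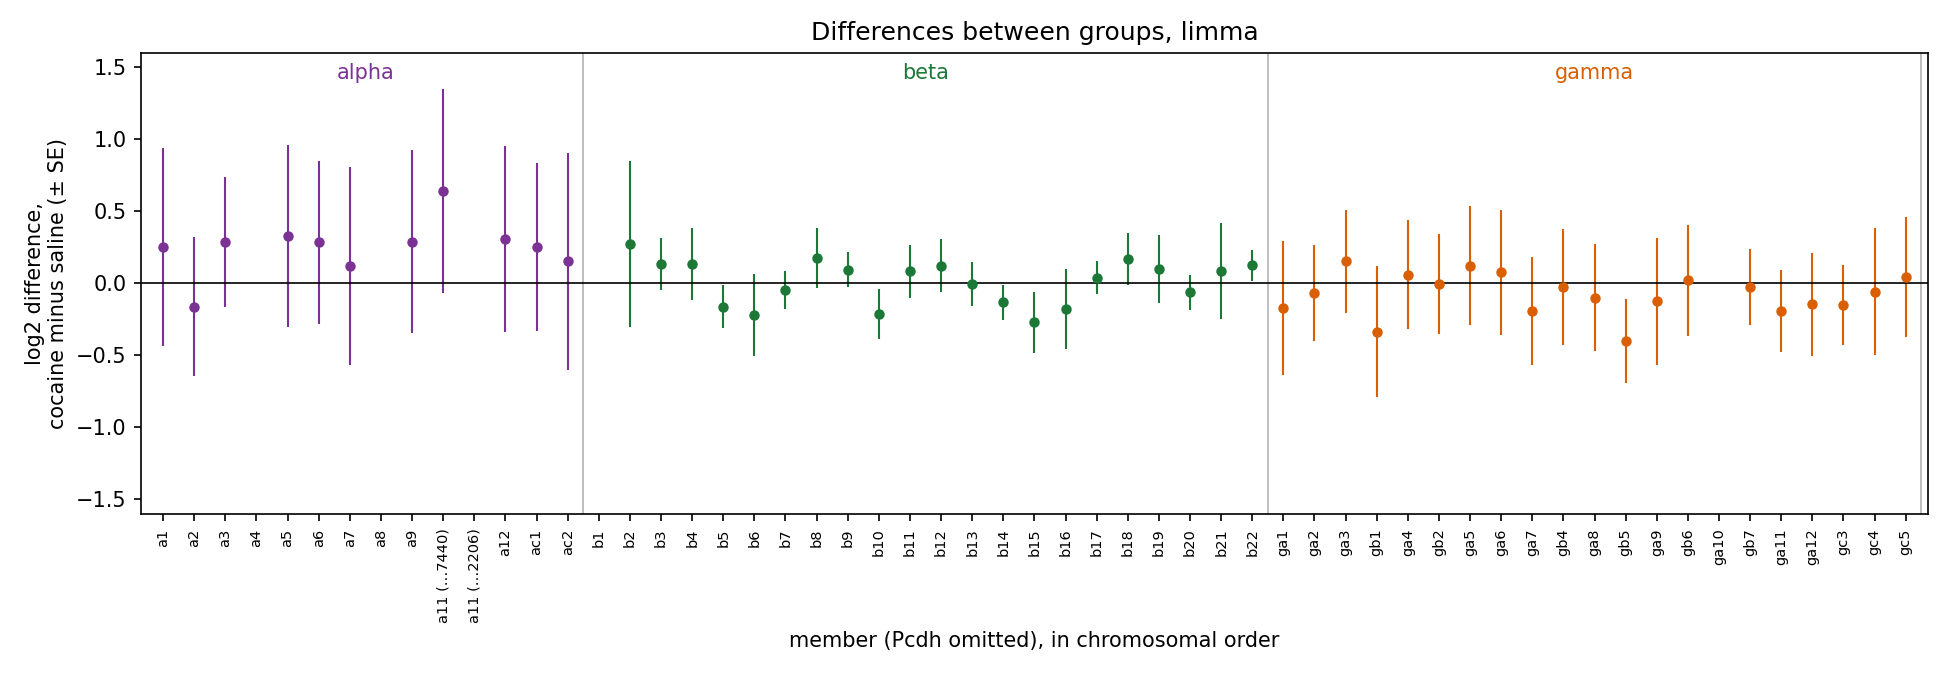
Log2 difference, cocaine minus saline on the log2(value + 1) scale, of the 52 tested members with standard errors from limma, in chromosomal order. Error bars of alpha members are the longest as a group and those of beta members mostly short, and the points lie between -0.40 and 0.64.

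In the alpha cluster the highest member, Pcdhac2 (ENSMUSG00000102697), had 107, 420 and 877 normalised reads as lowest, median and highest in cocaine libraries, against 45.5, 433 and 971 in saline libraries. The groups overlapped almost fully, and the range within each was far larger than the gap between their medians. The log2 difference was 0.15 ± 0.75 (SE; exact permutation p = 0.831). Pcdhac1, the other C-type member of the cluster, had 11.9, 40.2 and 55.6 in cocaine and 4.05, 32.6 and 63.7 in saline libraries, a log2 difference of 0.25 ± 0.58. Pcdha12 had 43.7, 93.1 and 255 in cocaine and 15.2, 120 and 240 in saline libraries. Its median was lower in cocaine while its log2 difference was 0.31 ± 0.64, so the direction was not settled by these libraries. Pcdha9 had 27.8, 84.2 and 153 in cocaine and 13.2, 89.2 and 158 in saline libraries, again overlapping. Pcdha11 had 13.9, 28 and 96.7 in cocaine and 1.01, 28.4 and 53.1 in saline libraries, with equal medians to within 1 normalised read. Its log2 difference of 0.64 ± 0.71 was the largest of all members (exact permutation p = 0.522) and became -0.03 without saline 5. Pcdha3 (0.29 ± 0.45) and Pcdha2 (-0.16 ± 0.48) also overlapped between groups.

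Beta members were the most even. Pcdhb17, the beta gene with the most reads, had 274, 315 and 389 normalised reads in cocaine libraries, against 238, 320 and 360 in saline libraries, and a log2 difference of 0.04 ± 0.11 (exact permutation p = 0.729). Pcdhb9 had 191, 244 and 261 in cocaine and 192, 208 and 277 in saline libraries, a log2 difference of 0.10 ± 0.12. Pcdhb20 had 186, 227 and 273 in cocaine and 182, 243 and 272 in saline libraries. The 3 genes kept within a narrow band, with overlapping groups. The smallest limma p-values in the cluster below 0 belonged to Pcdhb15, with 25.4, 45.1 and 61.5 in cocaine and 42.5, 50.5 and 65.9 in saline libraries (log2 difference -0.27 ± 0.21; exact permutation p = 0.232), and Pcdhb10 (-0.21 ± 0.17; exact permutation p = 0.229). In the other direction came Pcdhb22, with 202, 242 and 273 in cocaine and 183, 225 and 251 in saline libraries (0.12 ± 0.11; exact permutation p = 0.240), and Pcdhb18 (0.17 ± 0.18). None of the 4 separated the groups.

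Among gamma members, Pcdhgc5 (ENSMUSG00000102543) had 742, 973 and 2097 normalised reads in cocaine libraries, against 367, 1391 and 2108 in saline libraries. The cocaine libraries all lay within the wider range of the saline group, in which saline 5 (367) and saline 6 (624) fell below every cocaine library. The log2 difference was 0.04 ± 0.42 (exact permutation p = 0.926). Pcdhgc3 had 148, 242 and 430 in cocaine and 166, 308 and 360 in saline libraries, a log2 difference of -0.15 ± 0.28. Pcdhgc4, which in mice is the gamma member required for neuronal survival, had 74.5, 150 and 327 in cocaine and 53.6, 196 and 300 in saline libraries, a log2 difference of -0.06 ± 0.44. Pcdhgb5 had the smallest limma p of all members, with 18.9, 35.7 and 45.3 in cocaine and 22.1, 44.1 and 83.9 in saline libraries, yet its groups overlapped too. Its log2 difference was -0.40 ± 0.29 (limma p = 0.190; exact permutation p = 0.232), and it ran from -0.58 to -0.21 when 1 library was left out. In the authors' deposited table the same gene also had the lowest p-value of the members, 0.131, and the adjusted p-value of every member was 1.00. Pcdhgb1 (-0.33 ± 0.46), Pcdhga3 (0.15 ± 0.36) and Pcdhga5 (0.12 ± 0.41) likewise did not pass.

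Summed over the cluster, alpha members gave 948 ± 595 normalised reads in cocaine and 1004 ± 777 in saline libraries (SD, n = 6 each). The beta sum was 2372 ± 167 in cocaine and 2359 ± 338 in saline libraries, and the gamma sum 3122 ± 1388 in cocaine and 3355 ± 1659 in saline libraries. Differences between the group means were thus smaller than 1 SD in each cluster. The alpha mean was lower in cocaine although most log2 differences of its members were above 0, so the sign depended on the scale. Shares within a cluster also differed between groups by less than 1 SD. C-type members held 46.0 ± 8.29% of the alpha sum in cocaine and 47.8 ± 6.88% in saline libraries. In the gamma cluster they held 52.5 ± 2.60% in cocaine and 51.6 ± 3.76% in saline libraries.

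**Figure D3:**
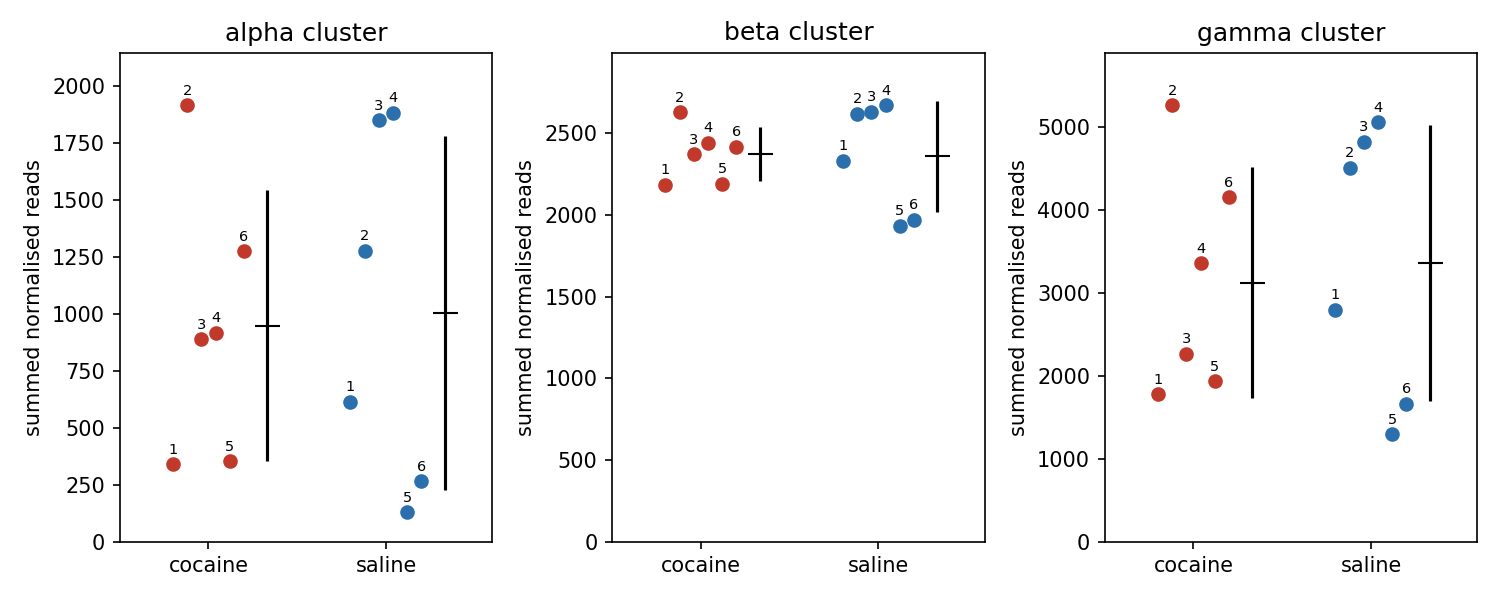
Summed normalised reads of the members of each cluster in each library (points, numbered by replicate; lines give mean and SD, n = 6), cocaine left of saline, with axes from 0. Alpha sums run from 132 to 1915 and gamma sums from 1295 to 5254, while beta sums stay between 1933 and 2669.

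The spread between libraries of a group was wide for alpha members, intermediate for gamma members and narrow for most beta members. Between the highest and the lowest library, the alpha sum differed 5.62-fold within the cocaine group and 14.3-fold within the saline group. The gamma sum differed 2.96-fold within cocaine and 3.90-fold within saline libraries, and the beta sum 1.20-fold within cocaine and 1.38-fold within saline libraries. The widest alpha range rested on saline 5, which had a sum of 132 and also stood apart in Ttr, a choroid plexus transcript. Without it the alpha sum differed 7.06-fold, the gamma sum 3.04-fold and the beta sum 1.36-fold within the saline group. The ratio of the alpha to the beta sum ran from 0.156 to 0.729 in cocaine and from 0.0681 to 0.705 in saline libraries. Saline 5 was the lowest library for 9 of 11 tested alpha members, 8 of 20 gamma and 6 of 21 beta members. Cocaine 2, saline 3 or saline 4 was the highest for 10 of 11 alpha members and 19 of 20 gamma members, so these members were high in the same libraries of both groups.

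As the SD between libraries of a group on the log2 scale, the median was 1.30 for alpha, 0.76 for gamma and 0.33 for beta members, against 0.26 over all genes tested (5th to 95th percentile 0.10 to 0.72) and 0.37 for 11 non-clustered protocadherins. All 11 alpha, 13 of 20 gamma and 1 of 21 beta members exceeded the 95th percentile of all genes. The beta exception was Pcdhb2, a low gene with 8.94, 20.5 and 35.3 normalised reads in cocaine and 3.69, 16.6 and 49.9 in saline libraries. Its SD was 1.15, against 0.31 from read counting. Pcdhb2 was highest in saline 4 (49.9), saline 3 (42.8) and cocaine 2 (35.3), like most alpha and gamma members. It was lowest in saline 6 (3.69), saline 5 (5.06) and cocaine 1 (8.94). The SD between libraries exceeded 2 times the SD from read counting in 11 of 11 alpha and 20 of 20 gamma members, and in 12 of 21 beta members.

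The same libraries were ordered by a measure that uses no clustered protocadherin. A length index was computed for each library as the median log2 deviation of the longest 1607 tested genes (exons of at least 9596 bases) minus that of the shortest 1607 (at most 1395 bases). It was chosen after the spread had been seen, and no member is long or short enough to enter it, since members have 2588 to 8695 bases. The index ran from -0.47 to 0.38 in cocaine and from -0.50 to 0.46 in saline libraries. Its means were -0.04 ± 0.33 in cocaine and 0.02 ± 0.38 in saline libraries (SD, n = 6; two-sided exact permutation p = 0.788). Saline 5 had the lowest index and cocaine 1 the next lowest, and saline 4, cocaine 2 and saline 3 had the highest.

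Across the 12 libraries the index was related to 8 single genes, the C-type members and the 3 highest beta genes, on the log2(value + 1) scale. For Pcdhac2, Pearson's r was 0.97 and Spearman's rho 0.96, each with a permutation p of 1e-05, the smallest that 100000 resamples can give, and adjusted p = 2.67e-05 over the 8 relations. Within groups its r was 0.97 in cocaine and 0.98 in saline libraries (exact permutation p = 0.00139 and 0.00278, n = 6 each; adjusted 0.0111 in both). For Pcdhgc5 r was 0.94 and rho 0.99 (permutation p = 1e-05 for both), with r of 0.92 in cocaine and 0.97 in saline libraries. For Pcdhgc4 r was 0.97 and rho 0.97 (permutation p = 1e-05 for both). Pcdhac1 had an r of 0.88 and a rho of 0.90 (permutation p = 3e-05 and 0.00016), and Pcdhgc3 an r of 0.91 and a rho of 0.80 (permutation p = 0.00017 and 0.00238). All 5 C-type members had an r of at least 0.90 within each group. The index was chosen after the spread had been seen, and how closely genes outside the clusters follow it is not given. The relations are therefore not shown to be particular to these members.

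Beta genes were less alike. Pcdhb17 had an r of 0.85 and a rho of 0.90 (permutation p = 0.00015 and 0.00017; adjusted 0.000227 and 0.000272), over a range of only 1.64-fold between libraries. Pcdhb20 had an r of 0.57 and a rho of 0.49 (permutation p = 0.0552 and 0.110), and Pcdhb9 an r of 0.41 and a rho of 0.43 (permutation p = 0.180 and 0.167). Without cocaine 1 and saline 5, the libraries farthest from the median index, r over the other 10 was 0.85 to 0.96 for the C-type members, 0.77 for Pcdhb17, 0.49 for Pcdhb20 and 0.54 for Pcdhb9.

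**Figure D4:**
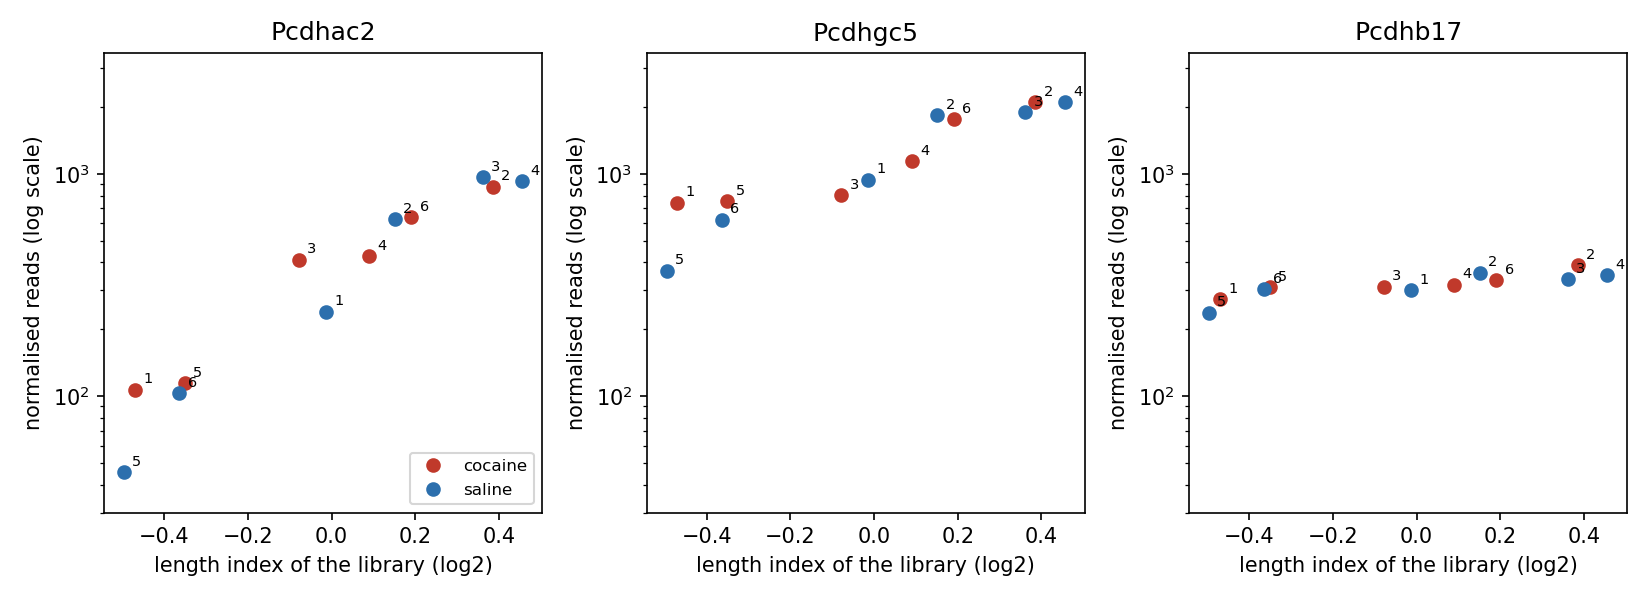
Normalised reads (log scale) of Pcdhac2, Pcdhgc5 and Pcdhb17 against the length index of the library (log2), with 1 point per library numbered by replicate. Pcdhac2 climbs from 45.5 to 971 along the index and Pcdhgc5 from 367 to 2108, while Pcdhb17 stays between 238 and 389, and both groups lie along the same course.

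Position within the transcript also differed between the clusters. The median distance of a member's own exon bases from the 3′ end of its exons was 4110 bases for tested alpha members, 3585 for gamma and 1860 for beta members. Over the 52 members the rank correlation of this distance with the SD between libraries was 0.67, given as a description, since members share libraries and constant exons. It was 0.36 within alpha, 0.26 within gamma and -0.07 within beta members, so most of it lay between the clusters. Pcdhb14, a beta gene at 4348 bases, beyond the alpha median, had an SD of 0.20, and Pcdhb2 at 1407 bases had an SD of 1.15. Own bases of Pcdhb14 reach its 3′ end (nearest at 0 bases). In Pcdhac2 the nearest own base lies 2860 bases from that end, and in Pcdhgc5 2119. The median distance is therefore not a like measure between beta members and the other clusters. The rank correlation of a member's mean level with its SD was -0.84 within beta members, 0.15 within alpha and 0.03 within gamma members, and -0.38 over all 52. The part of read position or RNA length in the spread was not tested.

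**Figure D5:**
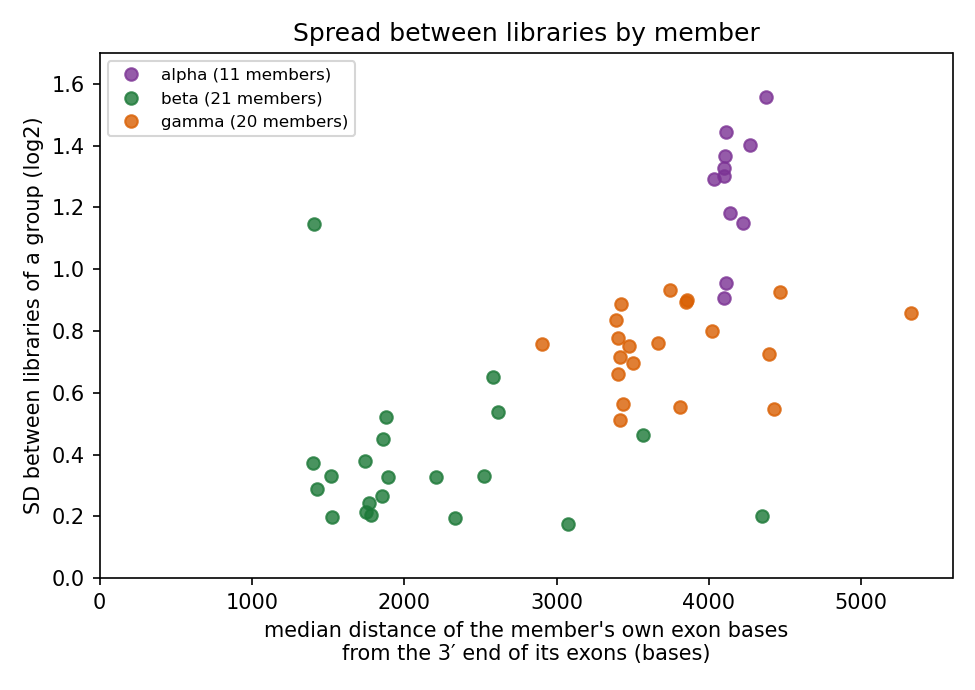
SD between libraries of a group (log2) of each of the 52 tested members against the median distance in bases of its own exon bases from the 3′ end of its exons, coloured by cluster. Alpha members lie at 0.91 to 1.56, gamma members at 0.51 to 0.93 and beta members at 0.17 to 1.15.

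With the length index added to the limma model, also chosen after the data were seen, the median standard error of alpha members was 0.27 and their median log2 difference 0.42, with 10 of 11 above 0. For gamma members the median standard error was 0.15 and the median difference 0.03, and for beta members they were 0.14 and 0.10. Unadjusted p under 0.05 was reached by 4 of 11 alpha, 1 of 20 gamma and 0 of 21 beta members, against 594 genes or 3.70% of all tested. Alpha members were high in the same libraries and share constant exons, so the 4 are not independent of each other. In the fit without the index, 0 of 11 alpha members were above 0 once saline 5 was left out. No library was left out with the index in the model. The 5 members were Pcdha5 (log2 difference 0.52 ± 0.16), Pcdha12 (0.50 ± 0.19), Pcdha9 (0.48 ± 0.20), Pcdhac2 (0.39 ± 0.17) and Pcdhga3 (0.26 ± 0.11). After adjustment over all genes none passed, with the same limma adjusted p of 0.998 for each, and 0 genes passed in all.

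Cell type markers were read beside these values, because in bulk tissue fewer cells of a type and less RNA per cell cannot be told apart. The 8 excitatory neuron markers summed to 73841 to 97689 normalised reads in cocaine and 69110 to 103594 in saline libraries, and the mesenchymal stem cell line that the labels also name was not used. The mean log2 deviation of the excitatory markers was lowest in saline 5 (-0.23) and highest in saline 4 (0.18). These libraries lie at the ends of the length index. In cocaine libraries, however, it was lowest in cocaine 4 (-0.06), not in cocaine 1 (-0.05), which had the lowest cocaine index. Interneuron markers did not follow the index. Their mean log2 deviation was lowest in saline 4 (-0.10), 0.04 in saline 5 and highest in saline 3 (0.08). Astrocyte marker sums were lowest in cocaine 1 (34605), cocaine 5 (36974), saline 6 (37584) and saline 5 (39812), the libraries lowest in the index. By mean log2 deviation, astrocyte markers were lower in saline 3 (-0.15) and saline 4 (-0.10) than in saline 5 (-0.003). The 10 myelinating oligodendrocyte markers summed to 49329 to 193409 in cocaine and 32935 to 235518 in saline libraries, with the highest sum in saline 1 and the lowest in saline 4. The 6 choroid plexus and ependyma markers summed to 82.5 to 310 in cocaine and 117 to 11792 in saline libraries. The top value was that of saline 5, where Ttr, the main choroid plexus transcript, had 11208 normalised reads, against at most 13.2 in cocaine libraries. The part of these cell types in the protocadherin values was not tested. Depth was 16.9 to 18.8 M recovered reads in cocaine and 16.7 to 19.9 M in saline libraries.

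Genes around and upstream of the clusters were compared in the same fit. Of 24 regulators of promoter choice 9 were above 0 and 15 below, with a median log2 difference of -0.03, and none was called. Ctcf, which anchors the promoter loops, had 1240, 1277 and 1348 normalised reads in cocaine and 1168, 1238 and 1359 in saline libraries (0.04 ± 0.06). The cohesin subunit Rad21 differed by -0.02 ± 0.09, and the cohesin loader Nipbl by -0.16 ± 0.11 (exact permutation p = 0.165). Dnmt3b, the DNA methyltransferase that marks protocadherin promoters in the mouse embryo, had 5.09, 8.63 and 12.8 in cocaine and 9.88, 11.7 and 15.2 in saline libraries, overlapping (-0.45 ± 0.27; exact permutation p = 0.0584). Dnmt1, the maintenance methyltransferase, differed by -0.15 ± 0.11. Over the same 12 libraries Ctcf had a narrow range.

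Among 21 binding and signalling partners 12 were above 0 and 9 below, with a median of 0.01 and none called. The smallest p-values were those of Pdcd10 (0.14 ± 0.10), an adaptor that binds cytoplasmic tails of the family, Marcks (0.06 ± 0.07), an actin-linked kinase substrate, and Ncstn (0.07 ± 0.09), a subunit of the gamma-secretase that cleaves these proteins. Of 12 non-clustered protocadherins, which lie elsewhere in the genome and have their own promoters, 11 were tested, with 6 above 0, 5 below and a median of 0.01. Pcdh15 (-0.15 ± 0.12), Pcdh18 (0.24 ± 0.23) and Pcdh20 (0.10 ± 0.19) had the smallest p-values and were not called. The neighbours Zmat2 (0.06 ± 0.08), Taf7 (0.18 ± 0.13) and Diaph1 (-0.07 ± 0.10) did not pass, and Slc25a2, between the beta and gamma clusters like Taf7, had at most 4.07 normalised reads in cocaine and 6.46 in saline libraries and was not tested.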

How the data were processed

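The authors deposited 1 table with a value per gene and library, group means, a log2 fold change, p-values and, as a unit of another kind, the length of each gene in bases, per the file headers. The values per library are a signal, namely counts that the authors scaled with 1 size factor for each library: 100% of values in every library were whole multiples of 1 read within 0.01 read, although the table's name says FPKM. In cocaine 1 and cocaine 2 the value of 1 read, 0.994 and 1.01, is close to 1, yet 0% of their values between 20 and 80 reads were whole numbers. HISAT2 2.0.5 and a human build, hg38, appear in the submitters' processing notes. No source used here gives the counter, the strand setting or the annotation. The IDs are mouse: 28825 of 28842 were found in GENCODE M21, 28061 with the same start and end, and all 57 members had the exon length deposited. Other labels, a stem cell line and a time tag of day 0 or 5, go against a brain study and formed no groups. In cocaine libraries the length index was -0.47, -0.08 and -0.35 at tag day 0 and 0.38, 0.09 and 0.19 at day 5, without overlap. Saline libraries overlapped, with -0.01, 0.36 and -0.50 at day 0 and 0.15, 0.46 and -0.36 at day 5. The part of the tag in the spread was not tested. With the tag as a limma covariate, 0 members passed.

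Groups came from the treatment labels. Genes with a mean of at least 10 normalised reads were tested with limma 3.58.1 in R 4.3.3 (variance trend, log2(value + 1), no covariate, two-sided), which understates the change of low genes. Adjustment was by Benjamini-Hochberg over all 16067 genes. Single values were tested by exact permutation over 924 splits (smallest p 0.00216) in Python 3.11.15. The limma step was tested on simulated data. Members and lists were chosen with earlier results of these data known. Named were the C-type members, the 3 highest and the lowest of each cluster per kilobase, the 2 with the smallest p in each direction, 3 genes per list and the neighbours. Alternatives changed the pseudocount, filter, scaling, model, covariates and libraries, with edgeR 4.0.16 and DESeq2 1.42.0 on recovered reads. Floors of 3 reads and SDs from counting cover counting error only. No sequence is shown.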

Additional observations from a re-analysis of the deposited data

Results flagged for a closer look

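Of 84 groups of 6 libraries examined, 8 held a library set far from the others, and chance would flag about 1 group in 20. Pcdhga5 had 181 normalised reads in cocaine 2, against 86.0 in the next cocaine library. The others among members are genes near 0: Pcdha4 with 2.94 normalised reads in saline 1, Pcdhb1 with 4.07 in cocaine 3 and 3.29 in saline 3, and Pcdhga10 with 3.15 in cocaine 6, each at or near the 3-read floor. Saline 5 stood apart in Ttr (11208 normalised reads against 12.6 in the next saline library), in the choroid plexus and ependyma marker sum (11792 against 366) and in the interneuron marker sum (19852 against 16737). The cluster sums, the ratios between them and the length index had no such library, although saline 5 was the lowest in all 3 cluster sums.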

How the results depend on the processing

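Under all 28 alternatives to the fit, 0 members passed an adjusted p of 0.05. Over all genes the count was 0 except for 3 under DESeq2. For single genes, log2 differences changed sign under edgeR for Pcdha12 (-0.048), Pcdha9 (-0.045), Pcdhac2 (-0.17) and Pcdhgc5 (-0.083), and under DESeq2 for the same genes (-0.057, -0.054, -0.18 and -0.090). Library weights reversed Pcdhga5 (-0.10) and Pcdhgc5 (-0.0020), the oligodendrocyte covariate Pcdhgc5 (-0.036) and the length index, added after seeing the data, Pcdhgc4 (0.077); the cause was not tested. The length index raised the count at an unadjusted p under 0.05 to 594 genes, against 240 without it. The stricter filter, a mean of 50 normalised reads, left 37 members and a mean FPKM of 1 left 24.

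Leaving out each library, 14 of 35 named genes with a difference changed sign at least once. The ranges were -0.016 to 0.21 for Pcdh20, -0.031 to 0.92 for Pcdha11 (ENSMUSG00000007440), -0.16 to 0.62 for Pcdha12, -0.42 to 0.14 for Pcdha2, -0.070 to 0.54 for Pcdha3, -0.12 to 0.58 for Pcdha9, -0.22 to 0.51 for Pcdhac1, -0.38 to 0.50 for Pcdhac2, -0.038 to 0.085 for Pcdhb17, -0.050 to 0.33 for Pcdhga3, -0.14 to 0.30 for Pcdhga5, -0.36 to 0.14 for Pcdhgc4, -0.27 to 0.24 for Pcdhgc5 and -0.060 to 0.021 for Rad21. Pcdhgb5 (-0.58 to -0.21), Pcdhgb1 (-0.58 to -0.12) and Pcdhgc3 (-0.32 to -0.010) kept their sign but moved by over 1.5 times, as did 15 other named genes. The count of members above 0 ran from 8 (without saline 5) to 38 (without cocaine 1 or saline 3), and was 15 without saline 6. Median differences ran from -0.16 to 0.54 for alpha, -0.06 to 0.08 for beta and -0.28 to 0.11 for gamma members.

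With the replicate number as a replicate block, 0 genes and 0 members passed and 236 genes had an unadjusted p under 0.05. The numbers do not pair the libraries: correlations of same-numbered deviations were -0.13, 0.33, -0.06, -0.19, 0.27 and -0.34, and no library matched its own number best. On own exon length the median level per kilobase was 15.5 for alpha and 32.2 for gamma members, against 6.89 and 17.1 on the deposited length. The gamma share of the summed members was 40.7% per kilobase, against 47.5% in reads. For alpha members the SD between libraries exceeded 2 times the counting SD in 11 of 11. The counting SD was taken at a member's mean reads over all libraries, and counting error is larger in libraries with few reads.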
